A study of Homo sapiens with 12 samples.

Results

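The genes described are those whose symbol starts with HNRNP, or consists of RBM, a number and at most 1 further letter. Of the 17508 genes in the count table, 56 met this rule, 24 of them hnRNP genes and 32 RBM genes. For 50 of them the table held exon counts as well as intron counts, for 3 exon counts alone (HNRNPA0, HNRNPA1L2 and HNRNPCL4) and for 3 intron counts alone (RBM12, RBM14 and RBM15). RBM10, RBM15B, RBM26, RBM44, RBM45 and HNRNPLL were not analysed here.

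The hnRNP proteins coat newly made RNA in the nucleus, and their group A, B, C, D, H, F, K, L, M, R and U members each prefer particular sequences, such as runs of G, U or C or repeats of CA. They repress or promote splice sites, and several of them also act in RNA export, transport and decay. The RBM genes carry the name RNA binding motif protein, which groups spliceosome components and splice site regulators with factors of RNA decay, RNA modification, ribosome assembly and the cold response. Several genes of both families carry introns or exons whose use is tuned by their own proteins.

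The libraries are labelled as TYK-nu, a line derived from a high-grade serous ovarian cancer, treated with cisplatin, a platinum drug that crosslinks DNA, or with its solvent DMSO, and collected after 24 or 72 h. The 4 groups, each with 3 replicates, are DMSO for 24 h, DMSO for 72 h, 15 µM cisplatin for 24 h and 15 µM cisplatin for 72 h, so DMSO for the same time is the control of each cisplatin group. RNA was selected for polyadenylated molecules, and reads were counted separately over the exons and over the introns of each gene. Cells were grown in triplicate, and what the replicates of a group share, such as a day or a passage, is not given, so the p-values below measure the spread between these libraries.

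The deposited counts summed over exons and introns to 28106882, 30792139 and 19940352 in the DMSO libraries at 24 h, and to 26921033, 28578024 and 44713703 at 72 h. The cisplatin libraries held 24542748, 36911333 and 18526830 counts at 24 h, and 49205311, 68753262 and 31908403 at 72 h. Intron counts were the scarcer measure, with 1185012 in the library with the fewest and 4840181 in that with the most. Because the libraries hold pooled RNA, fewer cells of a kind and less RNA per cell cannot be told apart in any value below.

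Marker genes in the counts went against the label. PECAM1 and CDH5, markers of endothelium, had median exon levels of 1955 and 863 CPM over the 12 libraries, where CPM is the usual scaling of a gene's counts to a common library total, here of exon counts adjusted by TMM size factors, with lowest values of 1350.3 and 658. Of 11 genes that mark the labelled cell type, 9 had an entry, and 4 of these had a median under 1 CPM: CDH1 at 0 in every library, PAX8 at 0.0184, KRT7 at 0.0359 and EPCAM at 0.826. The other labelled-type markers were WT1 at 2.44, KRT19 at 2.04, KRT8 at 22.5, KRT18 at 157 and VIM at 7662, the most abundant of them. Markers of blood (PTPRC at 0, CD3E at 0.434) and of fibroblasts (COL1A1 at 0.0527, COL1A2 at 0) were at or near 0. Of 15 further endothelial markers with an entry, chosen after values were seen, 7 had a median over 100 CPM, led by TIE1 at 2124 and MMRN1 at 1874, and 5 were under 1, among them VWF at 0.684 and SOX17 at 0. Of 8 further epithelial or ovarian markers with an entry, also chosen after values were seen, 6 were under 1 CPM, 3 of them (FOLR1, CD24 and GRHL2) at 0 in every library, and the most abundant was MEIS1 at 7.97. The libraries are therefore named below by their treatment and time.

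The comparison of 72 h with 24 h asks what changes over time in culture, separately in DMSO and in cisplatin. Summed over all members, the 56 genes made up a smaller share of all exon counts at 72 h than at 24 h in both arms. In DMSO their share was 1.24, 1.24 and 1.31% at 24 h and 0.893, 0.916 and 0.929% at 72 h, a mean of 1.26% ± 0.0401 (SD, n = 3) against 0.913% ± 0.0185. With cisplatin the share was 1.27, 1.26 and 1.30% at 24 h and 0.949, 0.906 and 0.916% at 72 h, a mean of 1.28% ± 0.0185 against 0.924% ± 0.0229. In both arms every 24 h library lay above every 72 h library, and the exact two-sided permutation p was 0.1, the smallest that 3 against 3 libraries allow. The share of intron counts decreased from 0.917% ± 0.0345 to 0.762% ± 0.0152 in DMSO and from 0.917% ± 0.0289 to 0.774% ± 0.0184 with cisplatin, again with no overlap and an exact permutation p of 0.1. Between cisplatin and DMSO the exon shares overlapped at both times, with exact permutation p-values of 0.6 at 24 h and 0.7 at 72 h, and those of the intron shares were 1 and 0.4.

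The endothelial markers moved with time as well. The summed exon level of PECAM1 and CDH5 was 3433, 3472 and 3474 CPM in DMSO at 24 h and 2055, 2033 and 2125 at 72 h. With cisplatin it was 3354, 3447 and 3478 at 24 h and 2307, 2164 and 2170 at 72 h. The 9 labelled-type markers summed to between 6957 and 7628 CPM in the libraries at 24 h and between 8078 and 8630.4 at 72 h, nearly all of it VIM, with CDH1 at 0. The 15 further endothelial genes summed to between 5683 and 5841 CPM at 24 h and between 6273 and 6539.5 at 72 h. Single genes within these sums moved in opposite directions. In DMSO the mean of KRT8 was 13.1 CPM at 24 h and 32.4 at 72 h, and that of KRT18 was 173 and 134. Among the further endothelial genes, the DMSO mean of TIE1 was 1783 and then 2409, and that of MMRN1 was 2040 and then 1780. The part of these shifts in the changes described below was not tested.

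In DMSO, most hnRNP genes and a smaller part of the RBM genes had lower exon counts at 72 h than at 24 h. Of 45 members that passed the filter on low counts, 28 fell and 5 rose by edgeR's quasi-likelihood test at a Benjamini-Hochberg adjusted p under 0.05, where 32.5% of all 10444 genes tested fell and 32.6% rose. The median log2 change of the 45 members was -0.30, against 0.01 for all genes. The hnRNP genes accounted for 18 of the falls: 18 of 20 tested fell and 0 rose, with a median of -0.53, and HNRNPF and HNRNPA1L2 passed in neither direction. Of the 25 RBM genes, 10 fell and 5 rose, with a median of -0.07.

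The same contrast with cisplatin gave a similar count. Of the 45 members, 29 fell and 3 rose by edgeR with Benjamini-Hochberg adjustment, where 31.5% of all genes fell and 32% rose, and the medians were -0.30 for the members and 0.02 for all genes. Again 18 of the 20 hnRNP genes fell and 0 rose (median -0.60), and of the 25 RBM genes 11 fell and 3 rose (median -0.09). These arms share no library. All 28 members that fell in DMSO fell with cisplatin, which is 100% of the DMSO list and 96.6% of the 29 in the cisplatin list. Over all genes these shares were 84.9 and 87.4%. The member called with cisplatin alone was RBM34, a nucleolar protein, at -0.18 ± 0.07 (adjusted p = 0.0266 by edgeR). Its call was lost without cisplatin 24 h replicate 1 or 3 or cisplatin 72 h replicate 3, with adjusted p-values of 0.117, 0.102 and 0.137. The exon levels at 72 h did not overlap those at 24 h for 35 of the 45 members in DMSO and 34 with cisplatin, where 67.4 and 67.2% of all genes had no overlap.

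**Figure D1:**
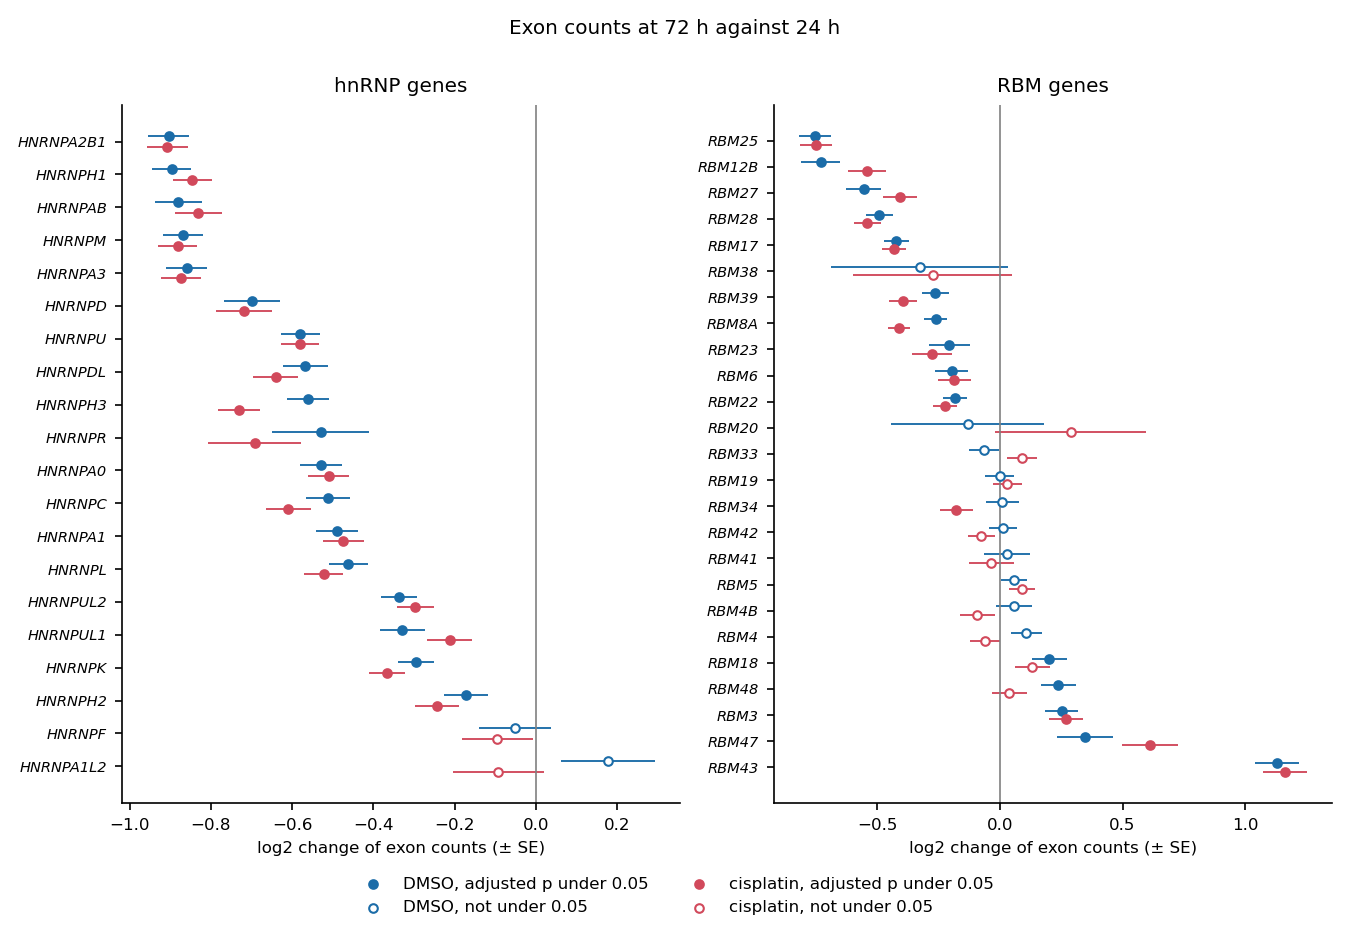
Log2 change in exon counts from 24 to 72 h with its standard error for the 20 hnRNP and 25 RBM genes tested, in DMSO and with cisplatin, with filled points for adjusted p under 0.05. The hnRNP genes lie almost wholly to the left of 0 in both arms, and the RBM genes lie on both sides of it, with RBM43 the highest.

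The A/B and D group binds nascent RNA and both represses splice sites and tunes RNA decay. Of its 8 tested genes, 7 fell in each arm, with medians of -0.63 in DMSO and -0.68 with cisplatin. Of all genes tested, 32.5% fell in DMSO and 31.5% with cisplatin. HNRNPA2B1 (ENSG00000122566, chr7:26171151-26201529 in GRCh38, minus strand), an A/B protein that acts in splicing and RNA transport, had 1855, 1832 and 1943 CPM in DMSO at 24 h and 934, 1030.1 and 1043 at 72 h. With cisplatin its values were 1879, 1890.2 and 1978 at 24 h and 1074, 985 and 1005 at 72 h. All libraries at 24 h lay above all libraries at 72 h, whichever the treatment. By edgeR its exon counts fell by 0.90 ± 0.05 (SE) on the log2 scale in DMSO (adjusted p = 1.88e-13) and by 0.91 ± 0.05 with cisplatin (adjusted p = 2.23e-13), which is 1.87 and 1.88 times lower.

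HNRNPAB, a related A/B type protein, had 368, 389 and 405 CPM at 24 h and 189, 223 and 219.9 at 72 h in DMSO, and 379, 381 and 393 and then 224, 214 and 209.5 with cisplatin. HNRNPA3, which resembles HNRNPA2B1, had 651, 618 and 699 and then 356, 363 and 366 in DMSO, and 684, 655 and 679.8 and then 376, 352 and 374 with cisplatin. For both genes the libraries at 72 h were all below those at 24 h, and the edgeR log2 changes were -0.88 ± 0.06 and -0.83 ± 0.06 for HNRNPAB (adjusted p = 4.04e-12 and 1.16e-11) and -0.86 ± 0.05 and -0.87 ± 0.05 for HNRNPA3 (adjusted p = 4.15e-13 and 3.70e-13). HNRNPD, also known as AUF1, which binds AU-rich elements and promotes RNA decay, fell by 0.70 ± 0.07 in DMSO and 0.72 ± 0.07 with cisplatin, and its relative HNRNPDL by 0.57 ± 0.06 and 0.64 ± 0.06. HNRNPA0 fell by 0.53 and 0.51. HNRNPA1, a repressor of splice sites, fell by 0.49 ± 0.05 and 0.47 ± 0.05. It has 74 named pseudogenes, with which its reads could be shared. The same holds for other members with named pseudogenes, among them HNRNPA3 with 16, HNRNPC and RBM22 with 9 each and HNRNPK with 5. HNRNPA1L2, the gene of the group that passed in neither arm, was at 0.18 ± 0.12 (adjusted p = 0.183) and -0.09 ± 0.11 (adjusted p = 0.482). Without DMSO 24 h replicate 3 it was called higher at 72 h in DMSO, at 0.30 (adjusted p = 0.0313 by edgeR).

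The H/F group binds runs of G near splice sites. In each arm 3 of its 4 genes fell, where 32.5 and 31.5% of all genes fell. HNRNPH1 (ENSG00000169045, chr5:179614178-179634784) had 574, 537 and 571 CPM in DMSO at 24 h and 291, 301 and 312 at 72 h. With cisplatin it had 553, 556 and 588 and then 321, 314 and 309. The values at 24 h were all above those at 72 h, and the gene fell by 0.90 ± 0.05 in DMSO (adjusted p = 9.31e-14 by edgeR) and 0.85 ± 0.05 with cisplatin (adjusted p = 3.15e-13). HNRNPH3 fell by 0.56 ± 0.05 and 0.73 ± 0.05, and HNRNPH2 by 0.17 ± 0.05 and 0.24 ± 0.05. HNRNPF was at -0.05 ± 0.09 and -0.10 ± 0.09, with adjusted p-values of 0.632 and 0.355.

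HNRNPC, which binds U tracts, fell by 0.51 ± 0.05 in DMSO and 0.61 ± 0.05 with cisplatin. All 4 genes of the K, L, M and R group fell in both arms, where 32.5 and 31.5% of all genes fell. HNRNPM (ENSG00000099783, chr19:8444767-8489114), a splicing regulator that binds GU-rich sequence, had 539, 513 and 551 CPM in DMSO at 24 h and 299.7, 282 and 296 at 72 h, and 528, 550.5 and 559 and then 306, 283 and 299 with cisplatin. Its groups did not overlap, and it fell by 0.87 ± 0.05 (adjusted p = 2.45e-13 by edgeR) and 0.88 ± 0.05 (adjusted p = 2.21e-13). HNRNPL, which binds CA repeats, fell by 0.46 ± 0.05 and 0.52 ± 0.05, HNRNPR by 0.53 ± 0.12 and 0.69 ± 0.11, and HNRNPK, which binds runs of C, by 0.30 ± 0.04 and 0.37 ± 0.04. All 3 genes of the U group fell in both arms as well. HNRNPU, a nuclear scaffold protein that binds RNA and chromatin, had 1295, 1271 and 1414 CPM in DMSO at 24 h and 892, 865 and 905 at 72 h, and 1339, 1298 and 1343 and then 919, 871 and 871 with cisplatin. It fell by 0.58 ± 0.05 and 0.58 ± 0.05 with no overlap (adjusted p = 2.12e-10 and 2.29e-10 by edgeR), HNRNPUL1 by 0.33 and 0.21, and HNRNPUL2 by 0.34 and 0.30.

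**Figure D2:**
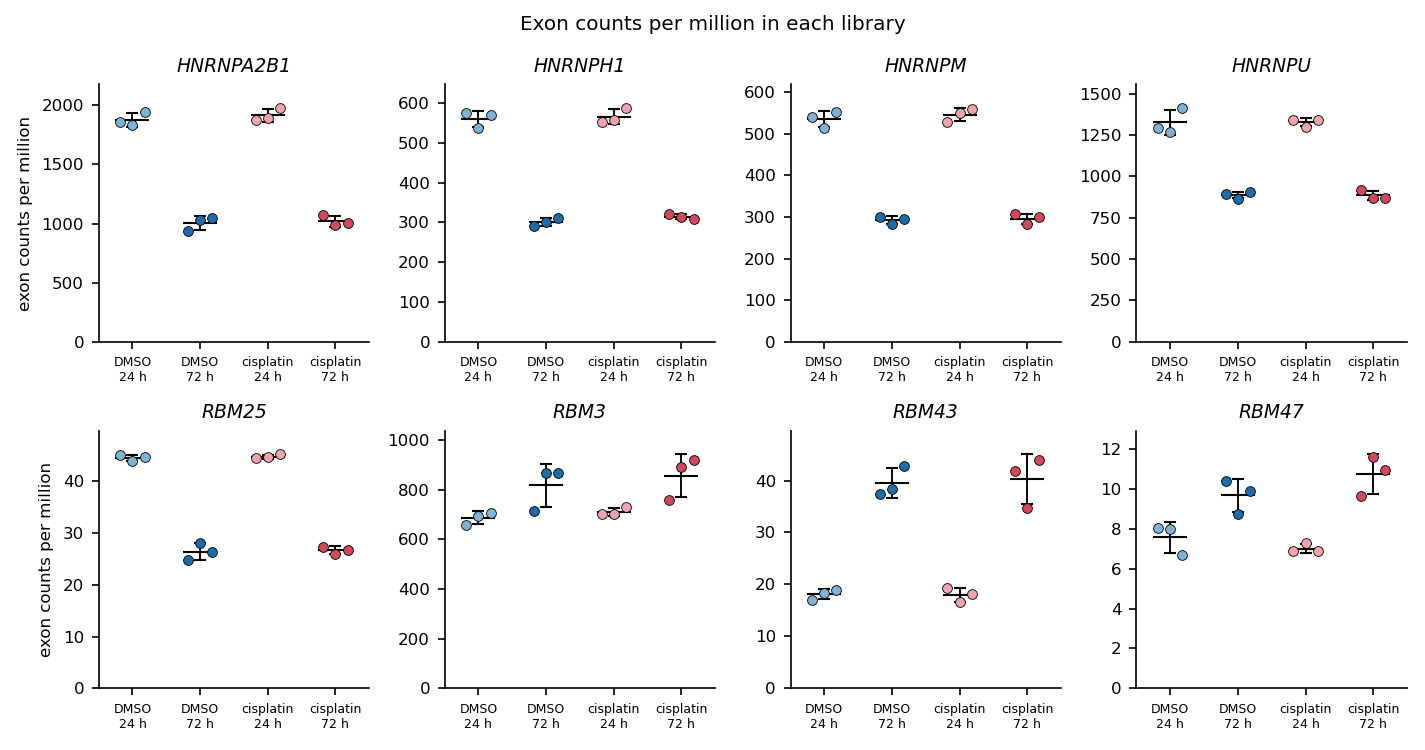
Exon CPM in each library, with group mean and SD, for HNRNPA2B1, HNRNPH1, HNRNPM, HNRNPU, RBM25, RBM3, RBM43 and RBM47 in DMSO and with cisplatin at 24 and 72 h. The first 5 genes are lower in every library at 72 h than in every library at 24 h, and RBM43 is higher in every library at 72 h.

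Of the 14 RBM genes of the spliceosome and of splice site choice that were tested, 6 fell in each arm, and 2 rose in DMSO and 1 with cisplatin, where 32.5 and 31.5% of all genes fell and 32.6 and 32% rose. RBM25 (ENSG00000119707, chr14:73058532-73123899), a splicing factor that sets the choice among alternative splice sites, had 45.1, 43.9 and 44.8 CPM in DMSO at 24 h and 24.9, 28.1 and 26.4 at 72 h. With cisplatin it had 44.5, 44.7 and 45.2 and then 27.4, 25.9 and 26.7. The libraries at 72 h were all below those at 24 h, and RBM25 fell by 0.75 ± 0.07 (adjusted p = 5.54e-10 by edgeR) and 0.75 ± 0.06 (adjusted p = 5.21e-10), the largest falls among the RBM genes tested. RBM17, which takes part in recognition of the branch site and the end of the intron, fell by 0.42 ± 0.05 and 0.43 ± 0.05. RBM39, a coactivator of splicing and transcription, fell by 0.26 ± 0.06 and 0.39 ± 0.06, RBM22, a component of the active spliceosome, by 0.18 and 0.22, and RBM23, a relative of RBM39, by 0.21 and 0.28. RBM6 fell by 0.20 and 0.19. RBM5, a splice site regulator linked to apoptosis, was at 0.06 ± 0.05 (adjusted p = 0.354) and 0.09 ± 0.05 (adjusted p = 0.146), and RBM4, a regulator of exon choice, at 0.11 ± 0.06 (adjusted p = 0.135) and -0.06 ± 0.06 (adjusted p = 0.414). By edgeR without a single library, RBM6 was no longer called in DMSO without DMSO 24 h replicate 3 (adjusted p = 0.0743), nor with cisplatin without cisplatin 24 h replicate 3 (0.0573) or cisplatin 72 h replicate 3 (0.0964). RBM23 was lost in DMSO without DMSO 24 h replicate 2 (0.260) or DMSO 72 h replicate 2 or 3 (0.0756 and 0.125).

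Among RBM genes of RNA decay, export and modification, 2 of 3 tested fell in each arm, where 32.5 and 31.5% of all genes fell. RBM8A, also called Y14, a core subunit of the exon junction complex, fell by 0.26 ± 0.05 in DMSO and 0.41 ± 0.05 with cisplatin. RBM27, a partner of the nuclear exosome pathway for polyadenylated RNA, fell by 0.55 ± 0.07 and 0.41 ± 0.07. RBM7, the RNA-binding subunit of a nuclear exosome adaptor, had too few exon counts to be tested, and RBM15, an adaptor of the m6A writer complex, had no exon entry. The nucleolar RBM28, a ribosome assembly factor, fell by 0.49 ± 0.06 and 0.54 ± 0.06, and RBM12B by 0.73 ± 0.08 and 0.54 ± 0.08. RBM38, a target of p53 that binds RNA of stress response genes, was at -0.33 ± 0.36 and -0.27 ± 0.32, with adjusted p-values of 0.436 and 0.473.

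RBM43, RBM47 and RBM3 rose in both arms. RBM43 (ENSG00000184898, chr2:151247940-151261863) had 17.1, 18.3 and 19.0 CPM in DMSO at 24 h and 37.4, 38.3 and 42.8 at 72 h, and 19.2, 16.7 and 18.1 and then 41.9, 34.8 and 44 with cisplatin. Its libraries at 72 h were all above those at 24 h, and it rose 2.19 times in DMSO and 2.24 times with cisplatin, log2 changes of 1.13 ± 0.09 (adjusted p = 1.23e-10 by edgeR) and 1.16 ± 0.09 (adjusted p = 7.55e-11). RBM3 (ENSG00000102317, chrX:48574449-48581162), a protein induced by cold, had 657, 695 and 707 CPM in DMSO at 24 h and 715, 866 and 869 at 72 h, and 701, 701 and 730.5 and then 759, 889.9 and 920.2 with cisplatin. In each arm its values at 72 h lay above those at 24 h, with replicate 1 the lowest of the 72 h libraries, and the log2 changes were 0.25 ± 0.07 (adjusted p = 0.00243 by edgeR) and 0.27 ± 0.07 (adjusted p = 0.00144).

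RBM47 (ENSG00000163694, chr4:40423267-40630875), a regulator of splicing and a cofactor of RNA editing, had 8.02, 7.99 and 6.68 CPM in DMSO at 24 h and 10.4, 8.76 and 9.90 at 72 h, and 6.86, 7.27 and 6.89 and then 9.66, 11.6 and 10.9 with cisplatin. The groups did not overlap in either arm, and RBM47 rose by 0.35 ± 0.12 in DMSO (adjusted p = 0.0108 by edgeR) and by 0.61 ± 0.11 with cisplatin (adjusted p = 4.93e-05). Without DMSO 24 h replicate 3 the rise in DMSO was no longer called, at 0.27 (adjusted p = 0.0568). In DMSO the calls also included RBM48, a factor of the minor spliceosome, at 0.24 ± 0.07 (adjusted p = 0.00609), and RBM18 at 0.20 ± 0.07 (adjusted p = 0.0170), where the values with cisplatin were 0.04 ± 0.07 and 0.13 ± 0.07 (adjusted p = 0.652 and 0.109). RBM18 lost its call in DMSO without DMSO 24 h replicate 2 or DMSO 72 h replicate 2 (adjusted p = 0.0921 and 0.0956), and gained one with cisplatin without cisplatin 24 h replicate 1 (0.0487). Without any single library, 29 of the 33 members called in DMSO and 30 of the 32 called with cisplatin kept their call, and these were also called by DESeq2 and under every other setting tried.

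Promoters of members that moved together are shown to put the genes' start sites beside their values. They come from RefSeq on GRCh38.p14, run from 250 bases before a transcript start through the first 50 bases from it, and were chosen after values were seen: HNRNPA2B1 (chr7:26200697-26200996, minus strand), HNRNPM (chr19:8444725-8445024, plus strand) and HNRNPD (chr4:82373942-82374241, minus strand) for falls, and RBM3 (chrX:48574234-48574533, plus strand) for a rise. Capitals mark matches, on either strand, to 7 motifs: the CCAAT box (CCAAT), the GC box (GGGCGG), a pair of E2F sites (TTTCCCGC and TTTGGCGC), the CRE (TGACGTCA), the E box (CACGTG) and an ETS site (CCGGAAGT).
HNRNPA2B1: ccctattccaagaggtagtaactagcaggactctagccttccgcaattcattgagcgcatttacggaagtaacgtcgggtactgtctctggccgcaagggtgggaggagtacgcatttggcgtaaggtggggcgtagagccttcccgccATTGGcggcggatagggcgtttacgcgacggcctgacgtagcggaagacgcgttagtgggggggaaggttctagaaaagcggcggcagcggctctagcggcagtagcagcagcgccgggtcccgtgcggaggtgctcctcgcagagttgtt
HNRNPM: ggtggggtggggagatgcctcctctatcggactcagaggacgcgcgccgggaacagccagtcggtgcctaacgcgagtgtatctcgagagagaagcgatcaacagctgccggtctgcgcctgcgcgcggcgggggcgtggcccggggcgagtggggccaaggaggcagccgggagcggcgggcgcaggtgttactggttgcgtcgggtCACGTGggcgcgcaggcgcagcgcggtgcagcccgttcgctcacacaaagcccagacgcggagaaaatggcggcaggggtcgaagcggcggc
HNRNPD: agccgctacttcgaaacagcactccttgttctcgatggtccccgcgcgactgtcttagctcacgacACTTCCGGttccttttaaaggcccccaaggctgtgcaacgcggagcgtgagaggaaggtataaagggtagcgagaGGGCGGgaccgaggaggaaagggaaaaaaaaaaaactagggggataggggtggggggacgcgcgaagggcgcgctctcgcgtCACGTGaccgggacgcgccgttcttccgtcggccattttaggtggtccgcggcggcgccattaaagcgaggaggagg
RBM3: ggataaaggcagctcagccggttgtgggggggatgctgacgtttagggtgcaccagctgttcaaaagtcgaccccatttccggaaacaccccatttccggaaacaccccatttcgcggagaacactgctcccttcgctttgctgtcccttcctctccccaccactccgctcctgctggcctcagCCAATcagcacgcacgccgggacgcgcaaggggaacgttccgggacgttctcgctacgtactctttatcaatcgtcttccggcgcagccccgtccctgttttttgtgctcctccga
The HNRNPA2B1 window holds CCAAT on the opposite strand (ATTGG), that of HNRNPM the E box, that of HNRNPD the ETS site on the opposite strand (ACTTCCGG), the GC box and the E box, and that of RBM3 CCAAT. Of the 28 members that fell in both arms, 25 had at least 1 window in the table, 35 windows in all. Of these, 62.9% held CCAAT, 71.4% the GC box and 22.9% the E box, against 34.6, 45.0 and 7.26% of all 35116 windows of this length. Those windows belong to 27305 genes and are not limited to genes with counts here, whereas the 28 members all passed the filter on low counts. A link between a motif and the fall was not tested. The ETS site was in 8.57% of the 35 windows and 4.14% of all, the E2F sites in 2.86 and 0% against 1.63 and 0.652%, and the CRE in 0% against 1.85%. The 3 members that rose in both arms had 5 windows, for 2 of the genes, of which 40% held CCAAT, 60% the GC box and 0% the E box. Across the windows of all 56 genes, 66 windows of 50 genes, CCAAT was in 56.1%, the GC box in 63.6% and the E box in 15.2%. A match describes these letters and not the binding of a factor.

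Intron counts, which in polyadenylated RNA can come from transcripts that still hold intron sequence, fell for some members and rose for others. The source of these reads was not tested. In DMSO 14 of the 43 members tested fell and 5 rose by edgeR with Benjamini-Hochberg adjustment, where 16.2% of all 9618 genes tested fell and 17.2% rose. With cisplatin 14 fell and 4 rose, where 15.4% of all genes fell and 16.4% rose. The median log2 change of the members was -0.15 in both arms, against -0.01 and -0.02 for all genes. Of the 17 hnRNP genes tested, 9 fell in DMSO and 10 with cisplatin, and of the 26 RBM genes 5 and 4 fell. Of the falls, 12 were shared by both arms, 85.7% of each list, and of the rises 3 were shared, 60% of the DMSO list and 75% of the cisplatin list. Over all genes these shares were 66.6 and 70.0% for falls and 70.7 and 74.2% for rises. Intron counts of the 24 h and 72 h libraries did not overlap for 23 of 43 members in each arm, where 43.1 and 42.2% of all genes had no overlap.

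The largest falls in intron counts among the members called were those of RBM15 and HNRNPA1 in DMSO and of HNRNPA1 and HNRNPR with cisplatin. RBM15 (ENSG00000162775, chr1:110338506-110346681), whose protein guides the m6A writer complex and which overlaps an antisense gene, had 117, 106 and 145 intron CPM, scaled to the library's intron counts, in DMSO at 24 h and 72.8, 67.3 and 63.9 at 72 h, and 149, 108 and 112 and then 73.1, 65.0 and 69.5 with cisplatin. HNRNPA1 had 193, 209.8 and 213 in DMSO at 24 h and 128, 119 and 111 at 72 h, and 189.9, 217 and 226 and then 111, 104 and 132 with cisplatin. Both genes were lower in every library at 72 h, by 0.85 ± 0.14 and 0.83 ± 0.14 for RBM15 (adjusted p = 3.50e-06 and 2.49e-06 by edgeR) and by 0.79 ± 0.11 and 0.88 ± 0.11 for HNRNPA1 (adjusted p = 1.34e-07 and 4.78e-09). HNRNPAB fell by 0.70 ± 0.14 and 0.69 ± 0.13, and HNRNPR, whose exon counts fell as well, by 0.61 ± 0.14 and 0.88 ± 0.14. HNRNPM, HNRNPU, HNRNPA2B1, HNRNPH1 and HNRNPC fell by between 0.43 and 0.68 in DMSO and between 0.42 and 0.60 with cisplatin. RBM17 fell by 0.37 ± 0.13 in DMSO, a call lost without DMSO 24 h replicate 3 or DMSO 72 h replicate 2 or 3 (adjusted p = 0.0518, 0.0712 and 0.0582 by edgeR), and by 0.54 ± 0.12 with cisplatin. HNRNPL was called with cisplatin and not in DMSO (adjusted p = 0.0845 by edgeR and 0.0405 by DESeq2); with cisplatin it fell by 0.25 ± 0.08 (adjusted p = 0.0180), and lost that call without cisplatin 72 h replicate 2 (0.107). HNRNPK, RBM5, RBM4, RBM8A, RBM25, RBM38 and RBM7 were not called for intron counts in either arm. In DMSO, RBM4 was called at -0.27 without DMSO 24 h replicate 3 (adjusted p = 0.0258 by edgeR) and RBM38 at 0.51 without DMSO 72 h replicate 2 (0.0475).

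RBM3 and RBM39 had more intron counts at 72 h in both arms. RBM3 had 469, 491 and 518 intron CPM in DMSO at 24 h and 747, 774 and 718 at 72 h, and 465, 504 and 479 and then 675, 731 and 722 with cisplatin. RBM39 (ENSG00000131051, chr20:35701347-35742312) had 498, 478 and 549.8 in DMSO at 24 h and 731, 766 and 653 at 72 h, and 486, 457 and 482 and then 664, 685 and 675 with cisplatin. For both genes all libraries at 72 h were above all libraries at 24 h. RBM3 rose by 0.60 ± 0.09 and 0.55 ± 0.09 (adjusted p = 1.16e-07 and 6.46e-07 by edgeR), and RBM39 by 0.49 ± 0.09 and 0.51 ± 0.09 (adjusted p = 9.50e-06 and 5.73e-06). RBM3 overlaps 1 gene on its own strand and 2 on the other strand, and whether their reads are in its counts was not tested.

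HNRNPD (ENSG00000138668, chr4:82352498-82374503) had 198, 195 and 228 intron CPM in DMSO at 24 h and 293, 300.2 and 249.9 at 72 h, and 236, 212 and 216 and then 258, 261 and 260.4 with cisplatin. The libraries at 72 h lay above those at 24 h in each arm, the nearest at 228 and 249.9 in DMSO and 236 and 258 with cisplatin. In DMSO its intron counts rose by 0.44 ± 0.10 (adjusted p = 0.000533 by edgeR), and with cisplatin the value was 0.23 ± 0.10 (adjusted p = 0.0694). HNRNPDL rose by 0.39 ± 0.09 in DMSO (adjusted p = 0.000520) and was at 0.20 ± 0.09 with cisplatin (adjusted p = 0.0854). RBM18 rose in both arms, by 1.2 ± 0.43 and 1.02 ± 0.42, at means of 15.7 and 21.0 counts a library. The call in DMSO was lost without DMSO 24 h replicate 1 or 3 or DMSO 72 h replicate 3 (adjusted p = 0.0571, 0.06 and 0.056 by edgeR), and that with cisplatin without cisplatin 24 h replicate 1 or 3 or cisplatin 72 h replicate 1 or 2 (0.260, 0.0522, 0.176 and 0.10). RBM43 rose with cisplatin, by 1.23 ± 0.51 at a mean of 14.0 counts (adjusted p = 0.0420), and lost the call without any of the 3 cisplatin libraries at 24 h (0.119, 0.0727 and 0.0902) and without cisplatin 72 h replicate 2 or 3 (0.148 and 0.0736). The RBM43 call was also lost by DESeq2 (adjusted p = 0.0929) and by edgeR with no filter on low counts (0.0551), and the RBM18 call with cisplatin by DESeq2 (0.080). Of the members called for intron counts, 15 of 19 in DMSO and 13 of 18 with cisplatin kept their call without any single library.

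Set side by side for the 41 members tested for both measures, exon and intron counts fell together for 12 members in each arm, among them HNRNPA2B1, HNRNPA1, HNRNPAB, HNRNPM, HNRNPU, HNRNPH1 and HNRNPC. Exon counts alone fell for 11 members in DMSO and 14 with cisplatin, RBM25 and HNRNPK among them. The exon counts of HNRNPD, HNRNPDL and RBM39 fell while their intron counts rose in DMSO, and with cisplatin this held for RBM39. In RBM4B intron counts alone fell, in both arms. Neither measure was called for 9 members in each arm, and both rose for RBM18 and RBM3 in DMSO and for RBM3 and RBM43 with cisplatin. Of all 9156 genes tested for both, 12.4% in DMSO and 11.4% with cisplatin fell in both measures, 20.8 and 20.9% in exon counts alone and 3.23 and 3.30% in intron counts alone. Exon counts fell while intron counts rose for 0.765 and 0.808%, both rose for 13.3 and 12.4%, and neither was called for 26.8 and 28.3%.

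**Figure D3:**
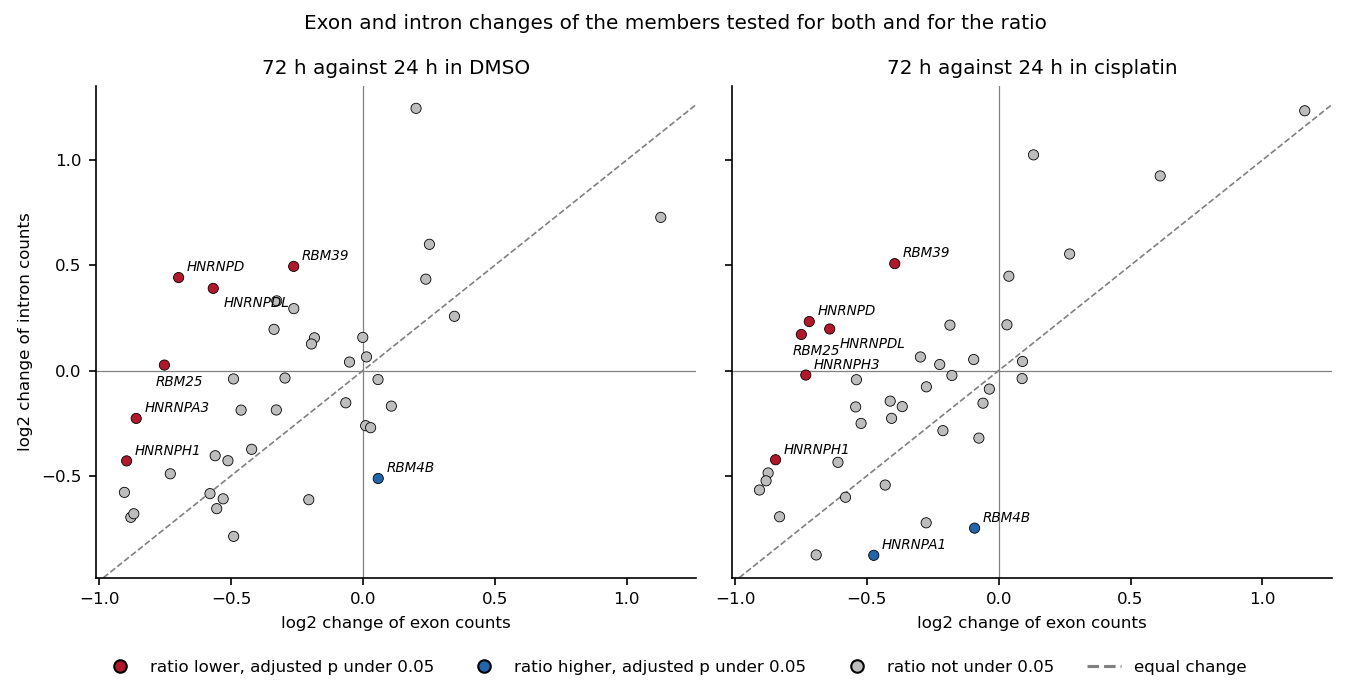
Log2 change in exon counts (horizontal axis) against log2 change in intron counts (vertical axis) from 24 to 72 h for the 41 members tested for both, in DMSO and with cisplatin, with a dashed line of equal change and members called for the exon/intron ratio coloured and named. HNRNPD, HNRNPDL, RBM25 and RBM39 lie above the line in both arms, and RBM4B lies below it.

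The exon/intron ratio, the exon counts of a gene over its intron counts in the same library, is the study's measure of splicing. It was tested in 1 model of both counts, as the change in exon counts over that in intron counts. Among members it fell more often than it rose. In DMSO 6 of 41 members tested had a lower ratio at 72 h and 1 a higher one by edgeR with Benjamini-Hochberg adjustment, where 3.37% of all 9393 genes tested were lower and 8.08% higher. With cisplatin 6 were lower and 2 higher, where 3.57% of all genes were lower and 8.39% higher. The median log2 change of the members was -0.10 in DMSO and -0.13 with cisplatin, against 0.10 and 0.11 for all genes. The lower members shared by both arms were HNRNPD, HNRNPDL, HNRNPH1, RBM25 and RBM39, 83.3% of each list, and over all genes the lists shared 54.9 and 51.9%. RBM4B was higher in both arms. The ratios of the 24 h and 72 h libraries did not overlap for 19 of 41 members in DMSO and 16 with cisplatin, where 28.3 and 29.8% of all genes had no overlap.

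HNRNPD had 11.6, 12.8 and 11.7 exon counts per intron count in DMSO at 24 h and 5.33, 5.76 and 6.2 at 72 h, and 10.1, 10.3 and 11.6 and then 6.40, 5.36 and 5.54 with cisplatin. HNRNPDL (ENSG00000152795, chr4:82422565-82430462) had 7.30, 7.56 and 7.50 in DMSO at 24 h and 4.08, 4.08 and 3.98 at 72 h, and 6.38, 6.92 and 7.35 and then 4.20, 3.86 and 3.98 with cisplatin. In both genes every library at 72 h was far below every library at 24 h. The ratio of HNRNPD fell by 1.06 ± 0.12 in DMSO (adjusted p = 9.35e-07 by edgeR) and 0.89 ± 0.12 with cisplatin (adjusted p = 1.27e-05), and that of HNRNPDL by 0.88 ± 0.11 (adjusted p = 1.90e-06) and 0.78 ± 0.11 (adjusted p = 1.31e-05). HNRNPD overlaps a gene on the other strand, and whether the counting used strand is not stated.

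RBM25 had a ratio of 4.68, 4.88 and 3.96 in DMSO at 24 h and 2.89, 2.59 and 2.82 at 72 h, and 4.01, 4.09 and 5.66 and then 2.54, 2.33 and 2.55 with cisplatin. RBM39 had 4.23, 4.82 and 3.97 in DMSO at 24 h and 2.66, 2.67 and 2.76 at 72 h, and 4.21, 4.07 and 4.91 and then 2.53, 2.47 and 2.35 with cisplatin. Neither gene's groups overlapped. RBM25 fell by 0.70 ± 0.15 and 0.85 ± 0.15 (adjusted p = 0.00279 and 0.000330 by edgeR), and RBM39 by 0.68 ± 0.11 and 0.84 ± 0.11 (adjusted p = 0.000173 and 1.29e-05). RBM25, too, overlaps genes on the other strand.

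HNRNPH1 had a ratio of 6.87, 7.67 and 6.03 in DMSO at 24 h and 4.88, 4.96 and 5.78 at 72 h, and 6.17, 5.96 and 7.75 and then 5.31, 5.46 and 4.63 with cisplatin. Its values at 24 h were the higher ones but came close to those at 72 h, and the log2 changes were -0.39 ± 0.12 (adjusted p = 0.0293 by edgeR) and -0.36 ± 0.12 (adjusted p = 0.0455). HNRNPH1 also overlaps a gene on the other strand. By DESeq2 the adjusted p was 0.0769 in DMSO and 0.117 with cisplatin. By edgeR the call in DMSO was lost without DMSO 24 h replicate 1 or 2 or DMSO 72 h replicate 1 or 2 (adjusted p = 0.0810, 0.135, 0.113 and 0.104). The call with cisplatin was lost without cisplatin 24 h replicate 1 or 3 (0.0604 and 0.186), without cisplatin 72 h replicate 1, 2 or 3 (0.0769, 0.0698 and 0.178), with the 6 libraries of that arm in the fit (0.0519) and with a replicate block (0.0690).

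HNRNPA3 had a ratio of 159.9, 158 and 141 in DMSO at 24 h and 95.4, 121 and 100.0 at 72 h, and 127, 120.1 and 132 and then 92.0, 107 and 107 with cisplatin. It was lower at 72 h without overlap, by 0.56 ± 0.14 in DMSO (adjusted p = 0.0106 by edgeR), and was at -0.31 ± 0.13 with cisplatin (adjusted p = 0.123); the call in DMSO was lost without DMSO 72 h replicate 1 or 3 (0.0520 and 0.0546). HNRNPH3 had 16.7, 18.6 and 17.9 in DMSO at 24 h and 15.9, 18.8 and 15.9 at 72 h, where the groups overlapped, and 20.8, 21.4 and 25.3 and then 16.5, 13.9 and 12.8 with cisplatin, where they did not. Its log2 changes were -0.08 ± 0.13 (adjusted p = 0.740) and -0.64 ± 0.12 (adjusted p = 0.00112). HNRNPA3 and HNRNPH3 overlap genes on the other strand as well, NFE2L2 for the former and PBLD and RUFY2 for the latter.

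RBM4B and HNRNPA1 had higher ratios at 72 h. RBM4B (ENSG00000173914, chr11:66664998-66677887), a close copy of RBM4, had 2.18, 2.61 and 2.27 in DMSO at 24 h and 4.10, 3.19 and 3.79 at 72 h, and 2.51, 2.00 and 2.52 and then 3.84, 4.41 and 3.24 with cisplatin. The groups did not overlap, and the ratio rose by 0.64 ± 0.16 in DMSO (adjusted p = 0.0107 by edgeR) and 0.73 ± 0.16 with cisplatin (adjusted p = 0.00326). Its intron counts fell by 0.51 ± 0.12 and 0.75 ± 0.12, and its exon counts were at 0.06 ± 0.07 and -0.09 ± 0.07, neither of them called. Without DMSO 72 h replicate 1 the adjusted p of the ratio in DMSO was 0.0529. RBM4 and RBM4B overlap in part on opposite strands, so reads in the stretch they share cannot be told apart if strand was not used.

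HNRNPA1 had a ratio of 71.7, 71.3 and 67.5 in DMSO at 24 h and 80.5, 94.4 and 97.8 at 72 h, and 73.4, 59.1 and 68.9 and then 103, 98.3 and 76.8 with cisplatin, with the values at 72 h above those at 24 h in both arms. With cisplatin the ratio rose by 0.47 ± 0.12 (adjusted p = 0.0117 by edgeR), a call lost without cisplatin 24 h replicate 2 or cisplatin 72 h replicate 1 or 2 (0.0752, 0.0731 and 0.0699). In DMSO the value was 0.37 ± 0.13 (adjusted p = 0.0558), and it passed with 6 libraries in the fit (0.0387), with no filter on low counts (0.0389) and without DMSO 72 h replicate 1 (0.0438). The part of reads shared with its pseudogenes in this ratio was not tested.

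The other members of interest for splicing were not called for the ratio in either arm. HNRNPA2B1 was at -0.26 ± 0.12 and -0.27 ± 0.12, HNRNPM at -0.12 ± 0.13 and -0.29 ± 0.12, HNRNPC at -0.02 ± 0.10 and -0.11 ± 0.10, HNRNPU at 0.08 ± 0.12 and 0.10 ± 0.11, and RBM3 at -0.28 ± 0.11 and -0.22 ± 0.11. HNRNPK was at -0.19 and -0.12, HNRNPL at -0.20 and -0.21, RBM5 at 0.17 and 0.19, RBM17 at 0.02 and 0.18, RBM8A at -0.51 and -0.17, and RBM38 at -0.58 and -0.13. RBM4 was at 0.35 ± 0.12 in DMSO (adjusted p = 0.0514 by edgeR and 0.0181 by DESeq2) and 0.16 ± 0.12 with cisplatin.

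**Figure D4:**
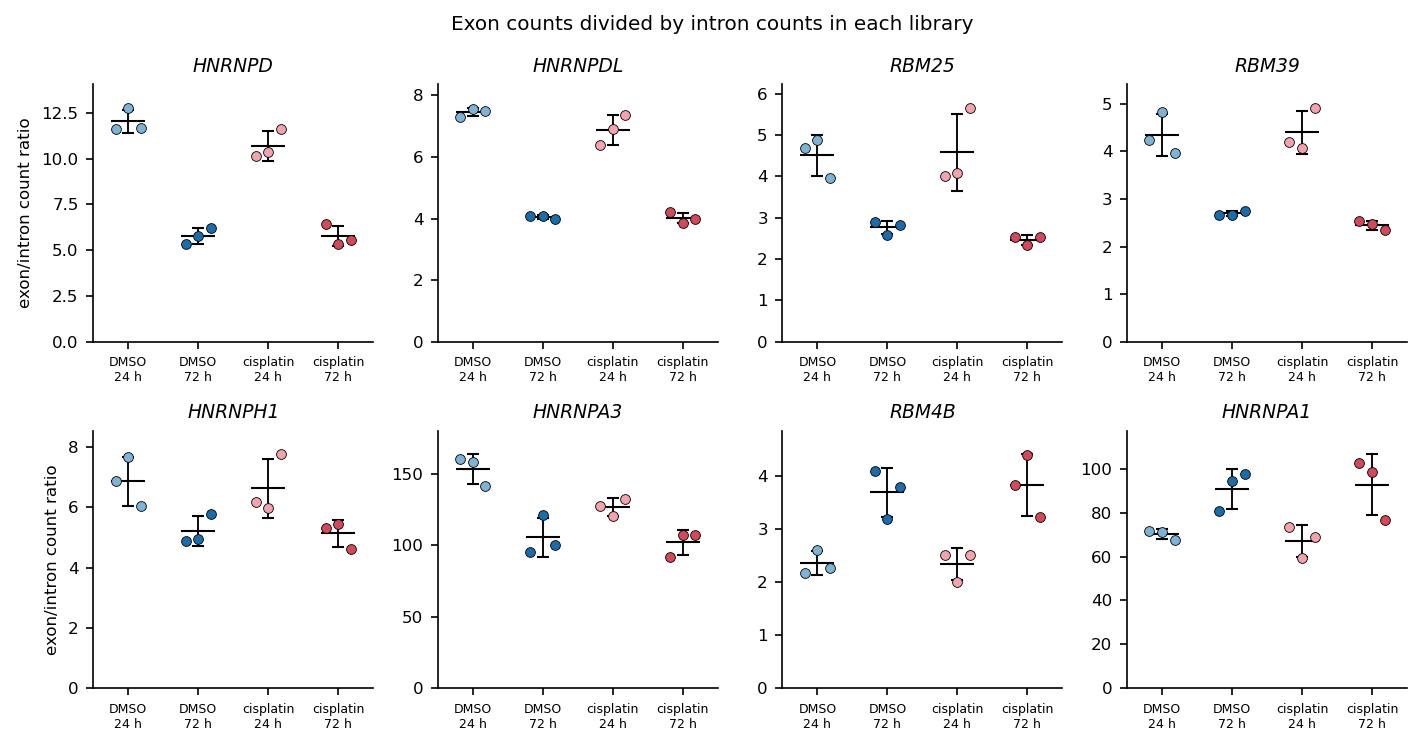
Exon counts per intron count in each library, with group mean and SD, for HNRNPD, HNRNPDL, RBM25, RBM39, HNRNPH1, HNRNPA3, RBM4B and HNRNPA1 in DMSO and with cisplatin at 24 and 72 h. The first 4 genes are lower in every library at 72 h than in every library at 24 h of the same arm, and RBM4B and HNRNPA1 are higher.

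The scaling of exon against intron counts moved the balance of ratio calls. With 1 size per library for either kind of count, 70.5% of all ratio calls in DMSO and 70.2% with cisplatin were rises, and with separate TMM sizes for exon and intron counts these shares were 56.0 and 49.5%. The median over all genes moved from 0.10 to 0.03 in DMSO and from 0.11 to 0.02 with cisplatin, and that of the members from -0.10 to -0.18 and from -0.13 to -0.22. The members then numbered 1 higher and 9 lower in DMSO and 2 higher and 12 lower with cisplatin, against 1 and 6 and 2 and 6 above. Over all 9393 genes 1191 were then called in DMSO and 1277 with cisplatin, against 1076 and 1123. HNRNPA2B1 (adjusted p = 0.0166 and 0.00922 by edgeR), HNRNPL (0.0338 and 0.0259) and RBM3 (0.00980 and 0.0256) were then called lower in both arms, and HNRNPM (0.0219), HNRNPA3 (0.0290) and RBM28 (0.0377) with cisplatin.

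The study's own test of the ratio, a logistic regression of exon against intron reads, called more members; it takes each read as independent. By its Wald test with Benjamini-Hochberg adjustment, 22 of 42 members passed in DMSO (15 lower and 7 higher) and 23 with cisplatin (16 lower and 7 higher), where 33.7% of 9739 genes and 40.6% of 9818 genes passed. Over all genes 1083 were lower and 2195 higher in DMSO, and 1141 lower and 2843 higher with cisplatin. With a quasi-binomial model, which estimates the spread between libraries for each gene, 2 members passed in each arm, both lower, where 64 of 9739 and 97 of 9818 genes passed, 64.1 and 70.1% of them higher. That spread comes from 6 libraries and is not shared between genes as in edgeR, so this model can miss changes. The median dispersion of the members was 1.86 in DMSO and 2.93 with cisplatin, against 1.81 and 1.95 over all genes, where 1 would be the spread of independent reads. The splicing score, the log2 ratio between the groups of the exon/intron ratios summed over replicates, had a median over members of -0.08 in DMSO and -0.17 with cisplatin, against 0.10 and 0.07 over all genes. It was below 0 for 28 and 29 of the 42 members, where 39.9 and 42.1% of all genes were below 0.

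The comparison of cisplatin with DMSO at the same time asks what the drug changes. No member passed the test for exon counts at either time. At 24 h 0 of 45 members were called by edgeR, where 0% of all 10444 genes were called, and 0 by DESeq2; at an unadjusted p under 0.05 there were 0 members and 260 of all genes. At 72 h 0 members were called by edgeR and 0 by DESeq2, where edgeR called 3 of all genes, 0.0287%, and DESeq2 79; 7 members and 1311 of all genes had an unadjusted p under 0.05. These 7 were HNRNPC, HNRNPH3, RBM12B, RBM34, RBM39, RBM4 and RBM8A. The intervals bound the difference closely: the 95% interval of the exon change lay within 1.5-fold of no difference for 43 of 45 members at 24 h and 43 at 72 h, and within 2-fold for all 45 at both times. Exon levels did not overlap between cisplatin and DMSO for 1 member at 24 h and 10 at 72 h, where 6.42 and 18.1% of all genes had no overlap.

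The members with the smallest p at 72 h were RBM4 and RBM8A. RBM4 had 64.1, 63.1 and 59.7 exon CPM in DMSO and 55.7, 58.1 and 51.1 with cisplatin, and RBM8A had 273, 260.4 and 258 in DMSO and 242, 243 and 239 with cisplatin. In both genes the cisplatin libraries lay below the DMSO libraries. The log2 difference was -0.18 for RBM4 (95% interval -0.30 to -0.05, adjusted p = 0.260 by edgeR) and -0.13 for RBM8A (-0.22 to -0.03, adjusted p = 0.261). At 24 h the smallest p belonged to HNRNPA1L2 at 0.17 (-0.08 to 0.41) and RBM48 at 0.10 (-0.05 to 0.25). HNRNPA2B1, whose exon counts fell most over time, differed between cisplatin and DMSO by 0.03 (-0.07 to 0.13) at 24 h and 0.03 (-0.08 to 0.13) at 72 h. RBM38, the p53 target, was at 0.21 (-0.52 to 0.94) and 0.26 (-0.42 to 0.95), a wide interval at a mean of 18.8 counts a library at 24 h.

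**Figure D5:**
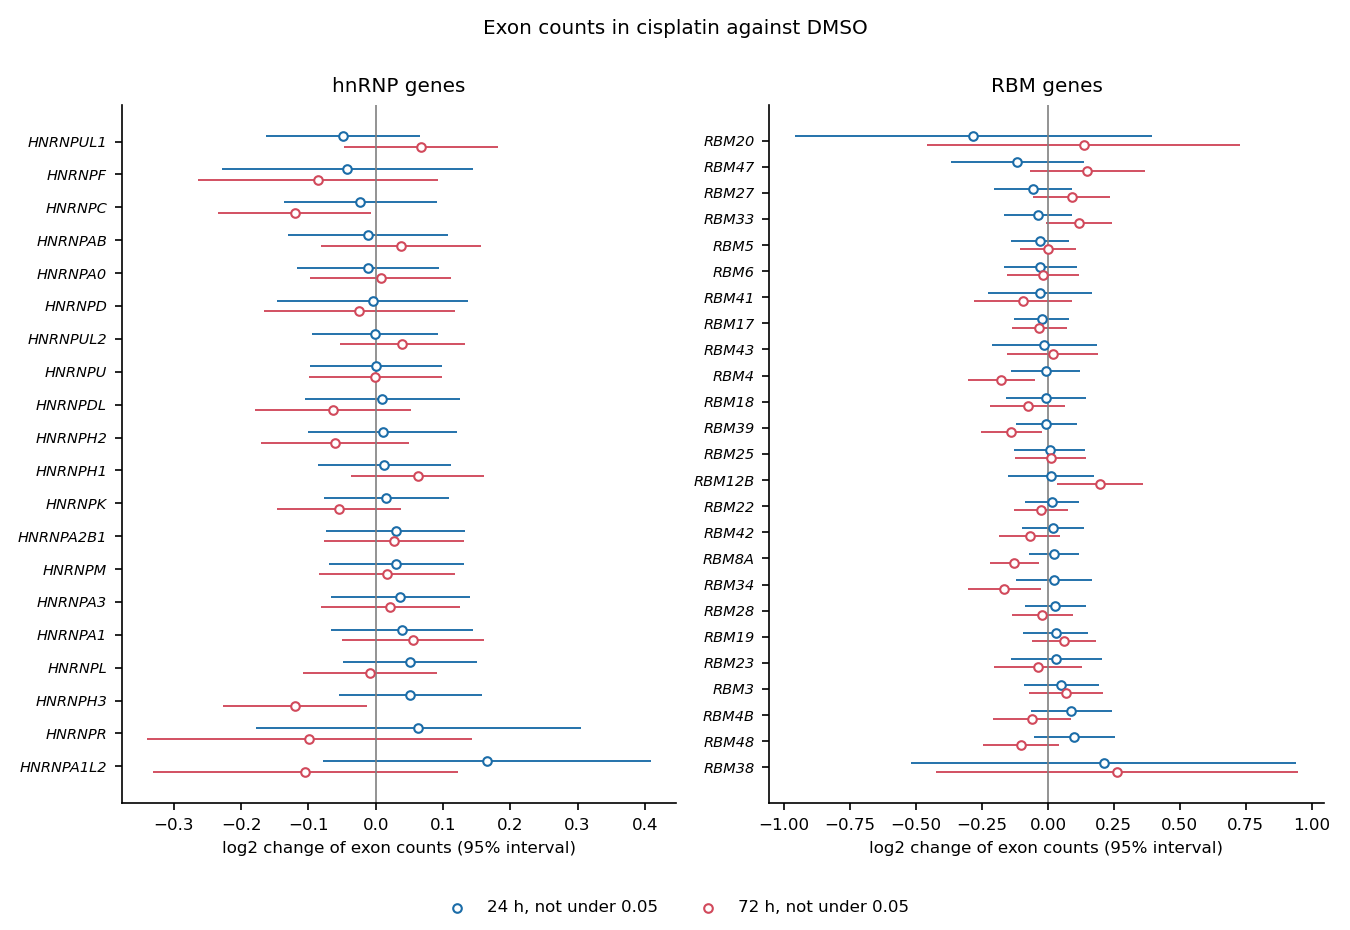
Log2 difference in exon counts between cisplatin and DMSO, with its 95% interval, for the 45 members tested at 24 h and at 72 h. The intervals of most members are narrow and include 0, and no member has an adjusted p under 0.05.

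For intron counts, 0 of 43 members were called at either time by edgeR and 0 by DESeq2, where edgeR called 2 of all 9618 genes, 0.0208%, at 24 h and 4, 0.0416%, at 72 h. At an unadjusted p under 0.05 there was 1 member at 24 h, HNRNPH3, and 0 at 72 h, where there were 481 and 621 of all genes. HNRNPH3 had 218, 216 and 209 intron CPM in DMSO at 24 h and 175, 160 and 167 with cisplatin. The cisplatin libraries were all below the DMSO libraries, by 0.36 on the log2 scale (95% interval -0.58 to -0.15), with an edgeR p of 0.00135 that became 0.741 after adjustment. RBM7, the next at 24 h, was at 0.77 (-0.21 to 1.76) with a mean of 10.0 counts a library, and at 72 h RBM4B was at -0.20 (-0.45 to 0.04) and HNRNPR at -0.23 (-0.51 to 0.05). Intervals were wider than for exons and lay within 1.5-fold for 35 of 43 members at 24 h and 36 at 72 h. Intron levels did not overlap for 4 members at 24 h and 2 at 72 h, where 8.94 and 13.4% of all genes had no overlap.

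For the ratio, 0 of 41 members were called at either time by edgeR and 0 by DESeq2, where edgeR called 0% of all 9393 genes at 24 h and 0.0213%, 2 genes, at 72 h. At an unadjusted p under 0.05 there were 2 members at 24 h, HNRNPH3 and HNRNPA3, and 1 at 72 h, RBM34, where there were 595 and 586 of all genes. HNRNPH3, with the ratios given above, was higher with cisplatin at 24 h by 0.33 (95% interval 0.07 to 0.59, adjusted p = 0.759 by edgeR), and HNRNPA3 was at -0.29 (-0.57 to 0.00). At 72 h RBM34 was at -0.41 (-0.77 to -0.05) and RBM41 at -0.28 (-0.60 to 0.04). The intervals lay within 1.5-fold for 30 of 41 members at 24 h and 33 at 72 h. The ratios did not overlap for 4 members at 24 h and 9 at 72 h, where 9.5 and 14.4% of all genes had no overlap. The median over all genes was -0.09 at 24 h and -0.08 at 72 h, and -0.00 and -0.02 with separate TMM sizes. The median over members was -0.11 at both times, and -0.02 and -0.04 with separate TMM sizes. With the shared size, 33 of 41 members at 24 h and 31 at 72 h were below 0, where 66.1 and 66.9% of all genes were.

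By the study's logistic regression, 9 of 42 members passed at 24 h (8 lower and 1 higher with cisplatin) and 10 at 72 h (all lower), where 11.5% of 9678 genes and 11.4% of 10011 genes passed. Calls over all genes were mostly lower as well, 1036 of 1110 at 24 h and 971 of 1144 at 72 h. The quasi-binomial model, with the limit given above, called 0 members at either time. The 9 at 24 h became 1 without cisplatin 24 h replicate 2 and 1 without DMSO 24 h replicate 2, and the 10 at 72 h became 6 without cisplatin 72 h replicate 3 and 5 without DMSO 72 h replicate 2. The median splicing score of the members was -0.07 at 24 h and -0.11 at 72 h, against -0.07 and -0.09 over all genes, and it was below 0 for 29 of 42 members at each time, where 62.2 and 67.3% of all genes were below 0.

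Whether the cisplatin effect differed between 72 h and 24 h, which is also whether the change over time differed between the arms, was tested as an interaction. Neither edgeR nor DESeq2 called a member for exon counts, intron counts or the ratio (0 each), and by edgeR 2, 1 and 1 of them had an unadjusted p under 0.05. Over all genes edgeR called 0, 4 and 0, and 985 of 10444, 549 of 9618 and 428 of 9393 had an unadjusted p under 0.05. HNRNPH3 had the smallest p in all 3 measures, with differences of -0.17 ± 0.07 for exon counts (adjusted p = 0.501), 0.38 ± 0.15 for intron counts (adjusted p = 0.791) and -0.55 ± 0.18 for the ratio (adjusted p = 0.998). The members called in 1 arm alone were not shown to differ between the arms: RBM34 was at -0.19 for exon counts (adjusted p = 0.542), RBM48 at -0.20 (0.540), HNRNPD at -0.21 for intron counts (0.916) and HNRNPA3 at 0.25 for the ratio (0.998).

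Lists of related genes moved with the members to different degrees over time. Of 29 tested RNA-binding proteins related to the hnRNP and RBM families, 16 fell and 5 rose in exon counts in DMSO by edgeR, and 17 fell and 4 rose with cisplatin, with medians of -0.21 and -0.20, against 0.01 and 0.02 over all genes, of which 32.5 and 31.5% fell. DHX9, an RNA helicase, fell by 1.0 ± 0.05 in DMSO (adjusted p = 4.60e-14) and 0.88 ± 0.05 with cisplatin (adjusted p = 4.92e-13), and TARDBP, which binds UG repeats, by 0.85 ± 0.05 and 0.83 ± 0.05. Of 8 exon junction complex genes, the partners of RBM8A, 6 fell in DMSO and 7 with cisplatin and 0 rose, with medians of -0.29 and -0.40. EIF4A3, the helicase that anchors the complex, fell by 0.51 ± 0.05 (adjusted p = 9.25e-09) and 0.62 ± 0.05 (adjusted p = 3.22e-10), ACIN1 by 0.38 ± 0.05 in DMSO, and MAGOHB by 0.71 ± 0.07 with cisplatin. Of 6 m6A writer genes, the partners of RBM15, 4 fell in each arm and 0 rose (medians -0.25 and -0.26), among them VIRMA by 0.37 ± 0.05 and 0.25 ± 0.05, ZC3H13 by 0.45 ± 0.07 in DMSO and METTL3, the catalytic subunit, by 0.35 ± 0.05 with cisplatin. Of 5 genes of the nuclear exosome adaptors in which RBM7 and RBM27 act, 4 fell in each arm and 0 rose (medians -0.39 and -0.38), with EXOSC10 at -0.49 ± 0.05 and -0.51 ± 0.05 and the helicase MTREX at -0.39 ± 0.06 and -0.38 ± 0.06.

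Of 16 p53 targets tested, a group to which RBM38 belongs, 6 rose and 0 fell in DMSO, and 6 rose and 1 fell with cisplatin, where 32.6 and 32% of all genes rose and 32.5 and 31.5% fell. Their medians were 0.11 and 0.10, against 0.01 and 0.02 over all genes. SESN2, a stress-induced regulator of growth signalling, rose by 2.41 ± 0.05 in DMSO and 2.40 ± 0.05 with cisplatin (adjusted p = 2.44e-20 and 3.13e-20 by edgeR), and GDF15, a secreted stress factor, by 2.61 ± 0.08 and 2.33 ± 0.08. Between cisplatin and DMSO 0 genes of any of these 5 lists were called for exon counts by edgeR at either time, and DESeq2 called 0 at 24 h and 1 at 72 h, SAP18 of the exon junction complex, named after its values were seen. At an unadjusted p under 0.05 there were at 24 h 0 related RNA-binding proteins, 1 exon junction complex gene, 0 m6A writer genes, 0 exosome adaptor genes and 0 p53 targets, and at 72 h 4, 1, 1, 0 and 1.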

How the data were processed

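The authors counted reads in 12 libraries, 3 in each of 4 groups, made from polyadenylated RNA with a directional kit and sequenced as read pairs. They checked reads with FastQC 0.11.8, trimmed them with Trim Galore 0.6.0, aligned them to GRCh38 with HISAT2 2.1.0 and counted them with HTSeq over exons and introns of each gene. For exons the intersection-strict mode was used and for introns the union mode, so the exon and intron counts admit reads by different rules. The strand option and the HTSeq version are not given in the sources used here. The deposited values are whole-number counts, 24 columns. The study states that its lines were not authenticated.

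Members and gene lists were chosen with earlier results of these data known. Symbols and coordinates come from GENCODE release 44. Exon counts and intron counts were each tested with edgeR 4.0.16 (quasi-likelihood, TMM size factors, filterByExpr, all 12 libraries) in R 4.3.3. The ratio was tested in edgeR as exon against intron counts of the same library, with a term for each library and a shared library total, for genes that reached 10 counts over exons and 10 over introns in 3 or more libraries. p-values are two-sided and adjusted over all genes tested. A standard error is the root of the inverse information matrix times the posterior dispersion, and a 95% interval is that error times the t quantile. The logistic regression and splicing score follow the study's methods. Exact permutation tests used scipy 1.17.1 under Python 3.11.15 (numpy 2.4.6, pandas 2.3.3), and plots matplotlib 3.10.9.

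The naming rule took, for each measure and comparison, up to 3 members with the largest rise and 3 with the largest fall. These were taken among members called, with a mean of at least 50 counts and no overlap between groups. It also took the 2 smallest p where none was called, a set of well-known members and up to 2 called genes of each list. Members outside this rule are described as well. A part of this rule that needs gene lengths was not run, so levels of members are not compared between genes; marker levels are in CPM and not per length. Alternatives were DESeq2 1.42.0, RLE size factors, no filter on low counts, separate TMM sizes, a replicate block, the 6 libraries of a comparison alone, a quasi-binomial model, a stricter count minimum and leaving out each library. 1 of the marker genes is not reported here. Of the 56 members, 45 were tested for exon counts, 43 for intron counts and 41 for the ratio, and 9 in no test. Of all members, 31 overlap a gene on the opposite strand and 20 one on the same strand.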

Additional observations from a re-analysis of the deposited data

How the results depend on the processing

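No call of a member changed direction under any alternative tried. Without single libraries, the cisplatin against DMSO difference in the members' share changed sign for exon counts at 72 h and intron counts at 24 h, within the ranges given here. The members with a changed ratio in cisplatin over time numbered 14 with separate TMM library sizes, against 8. With the quasi-binomial model the logistic regression called 2 members over time in DMSO, 2 over time with cisplatin, and 0 between the treatments at either time (0 at 24 h, 0 at 72 h). The other 87 values of counts of members and summed shares under another setting stayed within 1.5 times or 1 SD of the main value. Leaving out each library gave 31 to 33 and 30 to 32 members changed over time in DMSO and with cisplatin for exon counts, 16 to 19 and 15 to 17 for intron counts, 5 to 7 and 6 to 8 for the ratio, and 17 to 20 and 20 to 24 by logistic regression. Between the treatments, at 24 and 72 h in that order, it gave 0 for exon counts, intron counts and the ratio by edgeR, and 1 to 13 and 5 to 10 by logistic regression. The change in the members' share, in percentage points, ranged from -0.364 to -0.328 and -0.367 to -0.344 over time for exon counts and from -0.166 to -0.135 and -0.153 to -0.126 for intron counts. For cisplatin against DMSO it ranged from 0.00142 to 0.0372 and -0.00201 to 0.0198 for exon counts and from -0.0162 to 0.0201 and 0.00289 to 0.0213 for intron counts. Replicates share a number across groups, and the deviations of same-numbered libraries had correlations across genes from -0.203 to 0.131. For exon counts over time every such correlation was above 0, with means of 0.0698 in DMSO and 0.0976 with cisplatin. With the replicate number as a block, 33 and 32 members were called over time for exon counts, 18 and 18 for intron counts and 7 and 7 for the ratio. It gave 22 and 23 by logistic regression over time, 9 and 10 for cisplatin against DMSO, and 0 by edgeR for cisplatin against DMSO and for the interaction; the exact sign-flip p of the shares over time was 0.25, the smallest that 3 pairs allow. The sign-flip test, and leaving out libraries for the shares and the interaction, were chosen after seeing the data. Of the values of the genes picked by the naming rule under another setting, 1185 stayed on the same side of the threshold, 11 passed it newly and 4 no longer passed it. Without 1 library these numbers were 1437, 3 and 18. Calls lost or gained by other members described are outside these numbers. Depth limits the intron measures: the range of intron totals was 1185012 to 4840181, and members with few intron counts, such as RBM7, RBM18 and RBM43, had wide errors.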
